A study of Mus musculus with 4 samples.

Results

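The microRNAs mmu-miR-378a-3p, mmu-miR-378c, mmu-miR-22-3p and mmu-miR-148a-3p, which have known roles in energy and lipid metabolism and are written below without the prefix for mouse, were followed in exosomes of young and old mice. They were chosen by name, with earlier results of these data known, and are 4 of the 668 miRNA names in the small RNA tables of the study. The libraries came from male C57BL/6J mice fed standard chow ad libitum. One library was made for each of 4 conditions, namely exosomes of the small intestinal epithelium at 3 months of age (3m-SI-Exos) and at 18 months (18m-SI-Exos), and exosomes of serum taken at 3 months (3m-serum-exos) and at 18 months (18m-serum-exos). Exosomes are small membrane vesicles that cells release and that carry RNA. With 1 library per condition there was no spread between replicates, so no difference below has a replicate check. The sources used here do not say whether a library held the RNA of 1 mouse or of several.

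A mature miRNA binds messenger RNAs mainly through its seed, bases 2 to 8 counted from its 5′ end, and lowers their translation and stability. The miR-378a hairpin lies in an intron of Ppargc1b, which encodes a coactivator of mitochondrial genes, and its products are known for roles in mitochondrial fuel use and in fat cells. miR-22 is abundant in heart, skeletal muscle and liver, and mice without it gain less fat on a rich diet. miR-148a promotes fat cell formation and, in liver, lowers the LDL receptor.

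The sequences that carry the results are shown because reads of near-identical miRNAs are hard to assign and because shared seeds group them. They are taken from RefSeq on GRCm38.p6, are written 5′ to 3′, and have the seed in capitals.

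miR-378c: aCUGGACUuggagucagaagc

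miR-378b: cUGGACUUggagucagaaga

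miR-378d: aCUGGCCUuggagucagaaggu

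miR-22-3p: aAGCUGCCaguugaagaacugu

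miR-148a-3p: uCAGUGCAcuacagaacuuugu

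miR-148b-3p: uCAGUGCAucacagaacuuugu

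miR-152-3p: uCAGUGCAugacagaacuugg

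miR-378a-3p had the same seed as miR-378c, and its sequence is not shown here. miR-378b starts 1 base later than miR-378c, which moves its seed by 1 base, and miR-378d has a different base within the seed. Over the 20 bases that miR-378c and miR-378b share in alignment, 19 were identical. Reads of the miR-378 names can therefore be assigned to the wrong name, and values for miR-378c, miR-378b and miR-378d are uncertain for that reason. miR-148a-3p, miR-148b-3p and miR-152-3p had 1 seed in common, with 20 of 22 aligned bases identical between miR-148a-3p and miR-148b-3p and 18 of 21 between miR-148a-3p and miR-152-3p. In GRCm38 the Mir378c hairpin is at chr14:46954830-46954928 on the minus strand, within an intron of Samd4, a gene of the opposite strand. The Mir22 hairpin is at chr11:75463716-75463810 on the plus strand, within an exon of its noncoding host transcript Mir22hg and an exon of the protein-coding gene Tlcd2 of the same strand. The Mir148a hairpin is at chr6:51269812-51269910 on the minus strand and overlaps no other annotated gene.

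The libraries held 212215 miRNA reads in 3m-SI-Exos, 71353 in 18m-SI-Exos, 832002 in 3m-serum-exos and 778237 in 18m-serum-exos. Levels are given as CPM, reads per 1000000 miRNA reads of the library, with exact Clopper-Pearson 95% intervals. Reads amplified by PCR without molecular identifiers are not independent molecules, so the intervals and detection limits cover counting error only. A CPM is a share of a library: fewer vesicles from a cell type and less of a miRNA per vesicle cannot be told apart. The labelled sources were checked against marker miRNAs. The 8 intestinal epithelial markers summed to 267248 and 82603 CPM in the SI-Exos at 3 and 18 months and to 16850 and 6603 CPM in serum exosomes, and among them miR-200b-3p had 0 reads in 18m-SI-Exos. The red blood cell list summed to 6324 and 37882 CPM in SI-Exos and to 219814 and 540212 CPM in serum exosomes.

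miR-378a-3p, the main product of its hairpin, was an abundant miRNA in all 4 libraries. It had 3008 reads in 3m-SI-Exos (14174 CPM, interval 13676 to 14686), 847 in 18m-SI-Exos (11871 CPM, 11089 to 12692), 7375 in 3m-serum-exos (8864 CPM, 8664 to 9068) and 2237 in 18m-serum-exos (2874 CPM, 2757 to 2996). In order of CPM, both SI-Exos libraries came first and the 18-month serum library last, with no overlap between neighbouring intervals. This order depends on the scaling. By the authors' RPM, which divides by a larger library total, miR-378a-3p was highest in 3m-serum-exos, at 522 against 162 in 3m-SI-Exos. By abundance it ranked 14th, 19th, 18th and 35th in these libraries.

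miR-378c, which shares the seed of miR-378a-3p, was rare. It had 59 reads in 3m-SI-Exos (278 CPM, 212 to 359), 8 in 18m-SI-Exos (112 CPM, 48.4 to 221), 25 in 3m-serum-exos (30.0 CPM, 19.4 to 44.4) and 3 in 18m-serum-exos (3.85 CPM, 0.795 to 11.3). By CPM the order of the libraries was the same as for miR-378a-3p, but the intervals of the SI-Exos ages overlapped.

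By CPM miR-22-3p had the opposite order between sources. Its reads numbered 2135 in 3m-SI-Exos (10061 CPM, 9640 to 10494), 1038 in 18m-SI-Exos (14547 CPM, 13682 to 15453), 46992 in 3m-serum-exos (56481 CPM, 55986 to 56979) and 12134 in 18m-serum-exos (15592 CPM, 15318 to 15869). The 3-month serum library stood far above the other 3. In that library miR-22-3p was the 3rd most abundant miRNA with 5.65% of all miRNA reads, against the 11th place and 1.56% in serum exosomes at 18 months. The intervals of 18m-SI-Exos and 18m-serum-exos overlapped.

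miR-148a-3p was likewise highest in serum exosomes of young mice. It had 80 reads in 3m-SI-Exos (377 CPM, 299 to 469), 29 in 18m-SI-Exos (406 CPM, 272 to 584), 2124 in 3m-serum-exos (2553 CPM, 2446 to 2664) and 599 in 18m-serum-exos (770 CPM, 709 to 834). The SI-Exos ages overlapped, and both lay below both serum libraries.

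**Figure D1:**
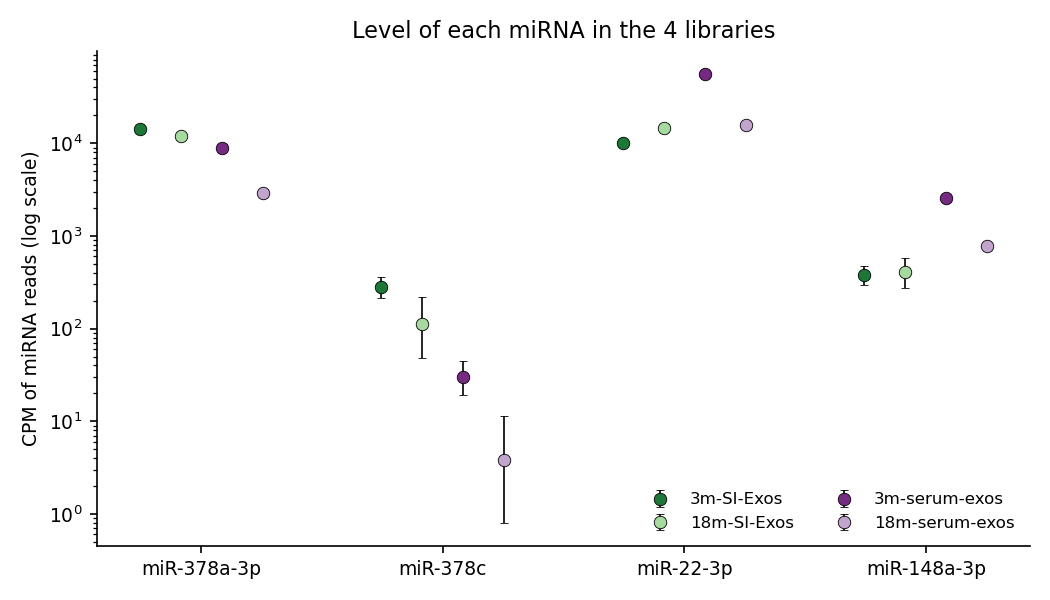
Level of the 4 miRNAs in each library, as CPM of miRNA reads on a log axis; points are single libraries and bars exact 95% intervals of counting error. By CPM miR-378a-3p and miR-378c were highest in 3m-SI-Exos (14174 and 278 CPM), and miR-22-3p and miR-148a-3p in 3m-serum-exos (56481 and 2553 CPM). By the authors' RPM miR-378a-3p was highest in 3m-serum-exos (522).

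The first question was how the 4 miRNAs differed between 3 and 18 months of age in serum exosomes. All 4 were higher at 3 months, by 3.08 to 7.79-fold. A miRNA counted as measured if either library compared held 10 or more of its reads, and was called with a CPM ratio of at least 2 and an exact interval without 1. By this rule all 4 were called higher at 3 months, against 46 of all 251 measured miRNAs, or 18.3%, while 25.9% were called lower. The calls compare 2 libraries and not the ages, and the 4 were chosen with earlier results of these data known.

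The ratio of 3 to 18 months in serum exosomes was 3.08 for miR-378a-3p (2.94 to 3.23). For miR-22-3p it was 3.62 (3.55 to 3.70), and for miR-148a-3p 3.32 (3.03 to 3.64). These 3 ratios lay close together although the level of miR-22-3p was far above that of miR-148a-3p. miR-378c gave 7.79 (2.38 to 40.3), a wide interval that rests on 25 and 3 reads. Among the 251 measured miRNAs, 10 had a larger ratio than miR-378c, 25 than miR-22-3p, 29 than miR-148a-3p and 30 than miR-378a-3p. The median log2 ratio was 1.79 over the 4 miRNAs and -0.38 over all measured miRNAs.

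The calls between the ages in serum exosomes did not depend on the scaling of the counts. All 4 stayed called higher with TMM factors, DESeq2 size factors, the authors' RPM and totals without the 5 most abundant miRNAs of either library. That last scaling bears on the strong shift in composition between the serum libraries, and miR-22-3p was itself among the miRNAs left out of those totals. Of these abundant miRNAs, miR-122-5p, the dominant liver miRNA, had 384405 CPM at 3 months and 26509 CPM at 18 months, a ratio of 14.5, while the red blood cell miRNA miR-451a had 215611 and 525476 CPM. Without the most abundant miRNAs in the totals, the ratios were 3.70 for miR-378a-3p, 9.36 for miR-378c, 4.35 for miR-22-3p and 3.98 for miR-148a-3p. Of the liver list, miR-122-5p and miR-122-3p, both were detected in both serum libraries. The list summed to 384415 and 26519 CPM, nearly all of it miR-122-5p. Only miR-122-5p reached the read minimum, and it was called higher at 3 months, as the 4 miRNAs were. The 8 epithelial markers had a summed ratio of 2.55, which miR-192-5p carried with 15846 of 16850 CPM at 3 months, but only that 1 marker was called higher and 3 were called lower. The 5 red blood cell markers had a summed ratio of 0.407 and the 7 striated muscle markers 0.953, with miR-208b-3p at 0 or not listed at both ages and miR-133b-3p at 3 months. The part of these cell types in the age difference was not tested.

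In SI-Exos the age ratios of the same 4 miRNAs were smaller than in serum exosomes by CPM, and less so by the authors' RPM, as given below. For miR-378c the intervals of the sources overlapped. By CPM the ratio of 3 to 18 months was 1.19 for miR-378a-3p (1.11 to 1.29), 0.692 for miR-22-3p (0.642 to 0.746) and 0.928 for miR-148a-3p (0.600 to 1.47), none of them called. Only miR-378c was called higher at 3 months, with 2.48 (1.18 to 6.01) on 59 and 8 reads. One call in 4 stands beside 70 of 214 measured miRNAs, or 32.7%, called higher in this comparison and 29.4% called lower. The median log2 ratio was 0.07 over the 4 miRNAs and 0.45 over all measured miRNAs. Of the 214, 78 had a larger ratio than miR-378c, 116 than miR-378a-3p, 128 than miR-148a-3p and 137 than miR-22-3p, so that the 4 lay in the middle of the range.

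**Figure D2:**
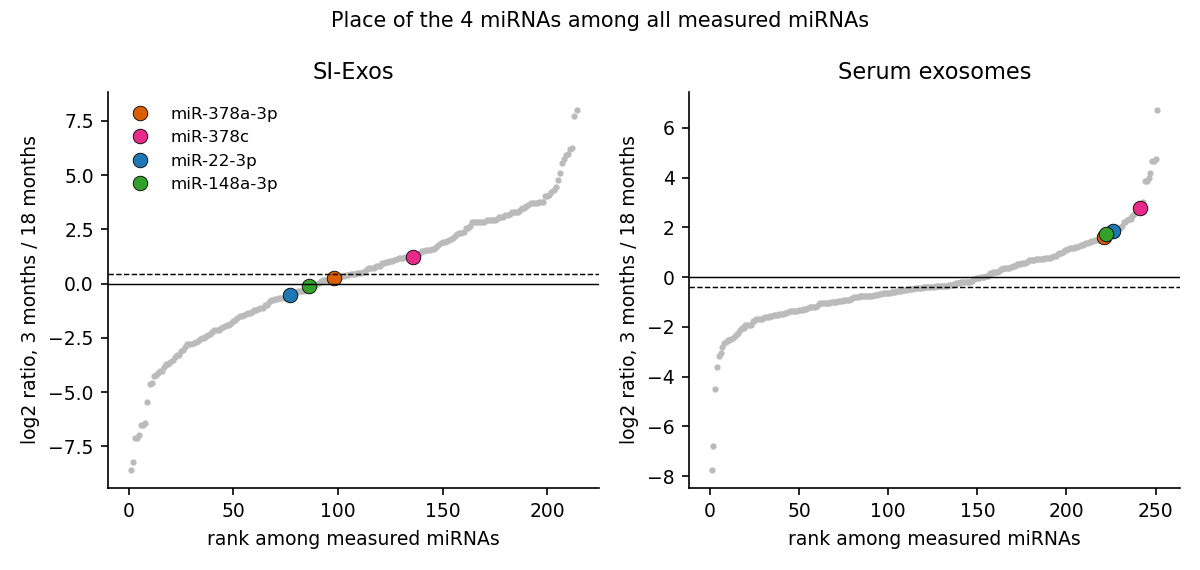
Log2 ratio of 3 to 18 months for every measured miRNA, in rank order, in SI-Exos (214 miRNAs) and serum exosomes (251); large points are the 4 miRNAs, the solid line is 0 and the dashed line the median of all measured. The 4 lie in the middle of the range in SI-Exos and near its upper end in serum exosomes.

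Unlike in serum exosomes, the calls in SI-Exos changed with the scaling. miRNA reads made up 1.14% of the authors' library total in 3m-SI-Exos and 0.411% in 18m-SI-Exos, against 5.89% and 5.31% in the serum libraries. By the authors' RPM, which divides by that total, the ratios in SI-Exos were 3.32 for miR-378a-3p, 6.88 for miR-378c, 1.92 for miR-22-3p and 2.58 for miR-148a-3p, and 3 of the 4 were called higher. By the same RPM 131 of all 214 measured miRNAs were called higher in SI-Exos, against 70 by CPM. With totals without the 5 most abundant miRNAs none was called, miR-378a-3p had 0.927 and miR-378c 1.92. The order of the 4 ratios was miR-378c, miR-378a-3p, miR-148a-3p and miR-22-3p under each scaling, since a scaling moves all by 1 factor. Epithelial markers in SI-Exos had a summed ratio of 3.24 and red blood cell markers, with miR-144-5p at 0 in the 3-month library, of 0.167, and their part in these ratios was not tested.

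**Figure D3:**
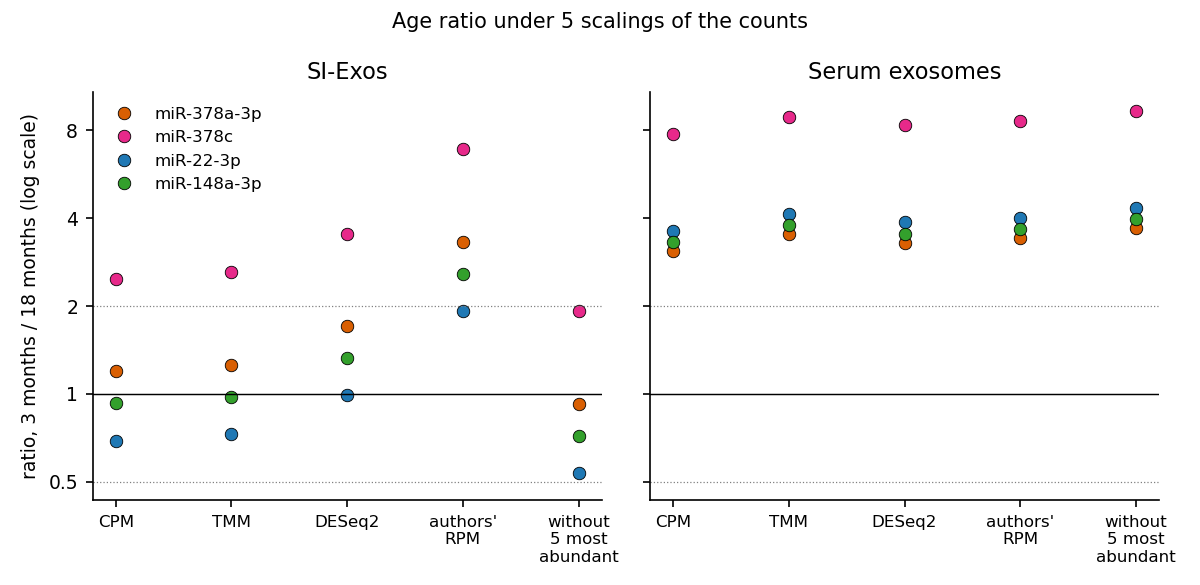
Ratio of 3 to 18 months of each of the 4 miRNAs under 5 scalings, on a log axis, in SI-Exos and serum exosomes; points are single ratios and dotted lines mark 0.5 and 2. In serum exosomes all points lie above 2, and in SI-Exos the points of miR-378a-3p run from 0.927 to 3.32.

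Set side by side by CPM, each age ratio was larger in serum exosomes than in SI-Exos. The serum ratio divided by the SI-Exos ratio was 2.58 for miR-378a-3p (2.36 to 2.83), 5.24 for miR-22-3p (4.85 to 5.66) and 3.58 for miR-148a-3p (2.32 to 5.52), with intervals from the normal approximation for counting error. For miR-378c it was 3.14 (0.770 to 12.8), an interval that includes 1. By the authors' RPM the quotients were 1.03 for miR-378a-3p, 1.25 for miR-378c, 2.09 for miR-22-3p and 1.43 for miR-148a-3p, so that the difference between the sources nearly vanished for miR-378a-3p. These quotients hold for 2 libraries per source, and the difference between the sources could not be tested against replicates.

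The passenger arms, the related miR-378b and the other known miRNAs with the seed of miR-148a-3p had ratios from 1.66 to 3.91 in serum exosomes. The passenger arm miR-378a-5p had 64 and 36 reads at 3 and 18 months (ratio 1.66, 1.09 to 2.58), and miR-378b 116 and 63 reads (1.72, 1.26 to 2.38). miR-148b-3p had 50 and 27 reads (1.73, 1.06 to 2.88) and miR-22-5p, the passenger arm of miR-22, 15 and 8 reads (1.75, 0.698 to 4.78). These 4 lay between 1.66 and 1.75, below the call, and the intervals of miR-378a-5p and miR-378b did not reach the 3.08 of miR-378a-3p, whereas that of miR-22-5p included the 3.62 of miR-22-3p. miR-152-3p, with the seed of miR-148a-3p, had 46 and 11 reads and was called higher at 3 months (3.91, 2.0 to 8.37). The remaining listed relatives were at or under 3 reads, with 3 and 0 reads for miR-378d and 1 and 0 for miR-148a-5p.

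In SI-Exos few of these relatives could be read. miR-378a-5p had 16 and 5 reads (ratio 1.08, 0.377 to 3.76) and was not called. miR-378b had 32 reads at 3 months and 0 at 18 months, and was called higher at 3 months, with an exact interval that started at a ratio of 2.75. miR-152-3p had 1 and 2 reads. miR-378d, miR-22-5p, miR-148a-5p and miR-148b-3p were not listed in the SI-Exos table, and miR-148b-5p and miR-152-5p were listed in neither table.

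**Figure D4:**
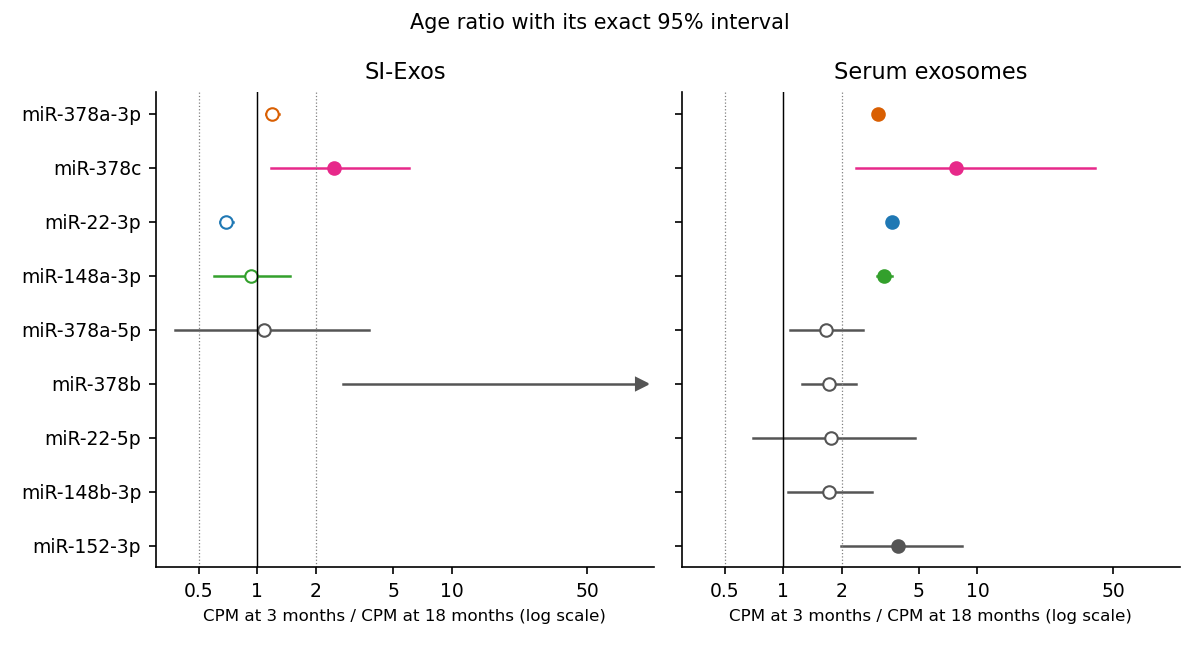
Ratio of 3 to 18 months with its exact 95% interval on a log axis, for the 4 miRNAs (colours) and their measured relatives (grey); filled points were called, open points were not, and the arrow marks miR-378b, with 0 reads at 18 months. In serum exosomes the 4 lie between 3.08 and 7.79 and most relatives between 1.66 and 1.75.

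The second question was how the sources differed at each age. At 3 months miR-22-3p was 5.61-fold and miR-148a-3p 6.77-fold higher in serum exosomes, with SI-Exos over serum ratios of 0.178 (0.170 to 0.186) and 0.148 (0.117 to 0.185). Both were called lower in SI-Exos, as were 28.1% of the 235 miRNAs measured. The 4 other scalings lowered these ratios further, to 0.0345 for miR-22-3p and 0.0286 for miR-148a-3p by the authors' RPM and to 0.0801 and 0.0664 with TMM factors. miR-378c was higher in SI-Exos by 9.25-fold (5.71 to 15.4), and 44.3% of measured miRNAs were called in that direction. By the authors' RPM this ratio was 1.79 and was not called. The ratio of miR-378a-3p was 1.60 (1.53 to 1.67), which was not called, and under the 4 other scalings its ratio fell below 1. Levels of SI-Exos and serum exosomes come from separate tables, each library being scaled to its own total.

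At 18 months the sources were closer by CPM for miR-22-3p and miR-148a-3p. The SI-Exos over serum ratio was 0.933 for miR-22-3p (0.875 to 0.994) and 0.528 for miR-148a-3p (0.351 to 0.766), and neither was called, where 31.2% of 231 measured miRNAs were called lower. Both were called lower with TMM factors, at 0.415 and 0.235, with DESeq2 size factors, at 0.492 and 0.278, and by the authors' RPM, at 0.0721 and 0.0408. Over all 231 measured miRNAs, 107, 98 and 173 were called lower under these scalings. miR-378a-3p was 4.13-fold higher in SI-Exos (3.81 to 4.47), beside 34.2% of measured miRNAs called in that direction, but its ratio was 1.84 with TMM factors and 0.319 by the authors' RPM. miR-378c had 8 and 3 reads and did not reach the read minimum, with a ratio of 29.1 (6.98 to 170).

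Ratios of reads within a library do not depend on any scaling, and they set the sources apart. miR-22-3p had 0.710 reads per miR-378a-3p read in 3m-SI-Exos (0.671 to 0.751) and 1.23 in 18m-SI-Exos (1.12 to 1.34). In the serum libraries it had 6.37 (6.22 to 6.53) and 5.42 (5.18 to 5.68). The balance between these miRNAs thus differed between the 3-month and 18-month libraries in opposite directions in the sources. At 18 months it lay more towards miR-22-3p in SI-Exos and less so in serum exosomes. The intervals of the ages did not overlap, but they cover counting error only, with 1 library per condition. miR-22-3p per miR-148a-3p read varied less, with 26.7 and 35.8 in SI-Exos and 22.1 and 20.3 in serum exosomes. Their intervals overlapped between the ages in both sources. The number of miR-378a-3p reads per miR-148a-3p read was 37.6 and 29.2 in SI-Exos and 3.47 and 3.73 in serum exosomes.

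As shares of the reads of the 4 miRNAs, miR-378a-3p took 56.9% and miR-22-3p 40.4% in 3m-SI-Exos, and 44.1% and 54.0% in 18m-SI-Exos. In serum exosomes miR-22-3p took 83.1% at 3 months and 81.0% at 18 months, and miR-378a-3p 13.0% and 14.9%. All 4 together made up 2.49% of the miRNA reads of 3m-SI-Exos (2.42 to 2.56), 2.69% of 18m-SI-Exos (2.58 to 2.82), 6.79% of 3m-serum-exos (6.74 to 6.85) and 1.92% of 18m-serum-exos (1.89 to 1.95). As a share of miRNA reads, the 4 were thus highest in the 3-month serum library and lowest in the 18-month serum library. By the authors' RPM miR-378a-3p, miR-22-3p and miR-148a-3p had 48.8, 59.8 and 1.67 in 18m-SI-Exos. These lay below their 153, 828 and 40.9 in 18m-serum-exos, while miR-378c had 0.461 against 0.205.

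Within the miR-378 names the makeup also differed between libraries. Per 1000 miR-378a-3p reads there were 19.6 of miR-378c in 3m-SI-Exos (14.9 to 25.4), 9.45 in 18m-SI-Exos (4.06 to 18.7), 3.39 in 3m-serum-exos (2.19 to 5.01) and 1.34 in 18m-serum-exos (0.276 to 3.92). At 3 months the intervals of the sources did not overlap, and between the ages of a source they did. miR-378b, in contrast, had more reads per 1000 in 18m-serum-exos (28.2, 21.6 to 36.2) than in 3m-serum-exos (15.7, 13.0 to 18.9) and 3m-SI-Exos (10.6, 7.26 to 15.1). In 18m-SI-Exos it had 0 per 847 miR-378a-3p reads, which allows up to 4.36 per 1000 by the exact interval. Reads assigned between the names could move all of these values.

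**Figure D5:**
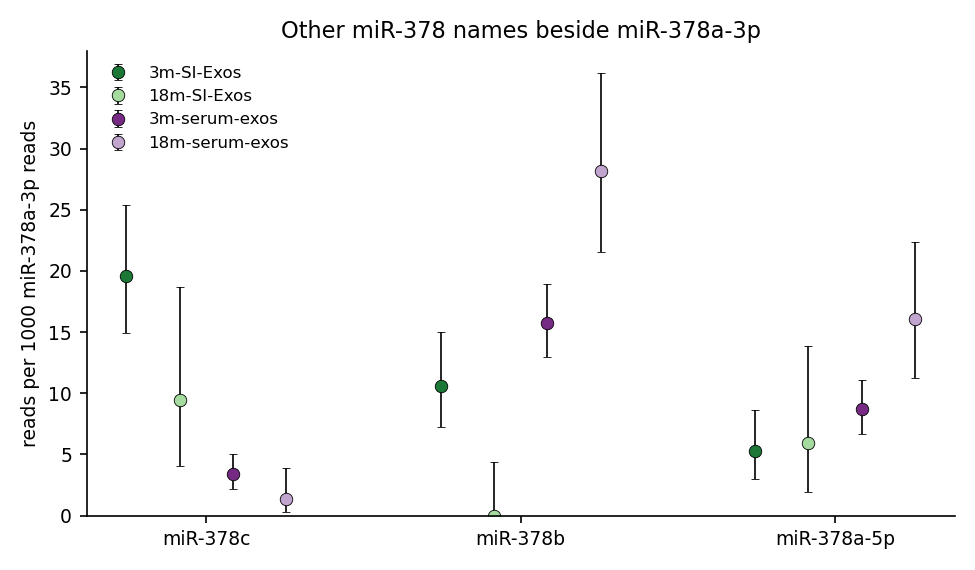
Reads of miR-378c, miR-378b and miR-378a-5p per 1000 miR-378a-3p reads in each library; points are single libraries and bars exact 95% intervals. miR-378c was highest in 3m-SI-Exos (19.6), and miR-378b and miR-378a-5p in 18m-serum-exos (28.2 and 16.1).

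The arms of each hairpin were strongly unequal in all libraries. The 3p arm made up 99.5%, 99.4%, 99.1% and 98.4% of the miR-378a reads in 3m-SI-Exos, 18m-SI-Exos, 3m-serum-exos and 18m-serum-exos. Per 1000 reads of miR-378a-3p there were 8.68 of miR-378a-5p in 3m-serum-exos (6.68 to 11.1) and 16.1 in 18m-serum-exos (11.2 to 22.3). The fraction of the passenger arm was thus larger in the 18-month library, by intervals of counting error that did not overlap. For miR-22 the 3p share in serum exosomes was 99.97% and 99.93%. miR-148a-3p made up 98.8%, 93.5%, 95.7% and 94.0% of the summed reads of miR-148a-3p, miR-148b-3p and miR-152-3p. A predicted miRNA with the same seed was not counted in these shares.

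To see which miRNAs varied most like each of the 4, log2 CPM profiles over the 4 libraries were centred and compared by the root mean square difference, among the 156 miRNAs that reached 10 reads in 1 or both libraries of each source. The nearest to miR-22-3p was miR-148a-3p, and the nearest to miR-148a-3p was miR-22-3p, at 0.31. Next came miR-24-3p and miR-99a-5p for miR-22-3p, both at 0.44, and miR-99a-5p (0.38) and miR-30a-5p (0.48) for miR-148a-3p. The nearest to miR-378a-3p were miR-143-3p (0.42), miR-30a-3p and miR-23b-3p, both at 0.52. For miR-378c they were miR-411-5p (0.56), miR-196a-5p (0.62) and miR-6538 (0.68). miR-378a-3p and miR-378c, which share a seed, were 1.40 apart, and 62 miRNAs were nearer to miR-378a-3p than miR-378c was. These distances describe 4 libraries of different depth.

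The age difference of the 4 in serum exosomes was set beside a list of 30 other miRNAs with known roles in lipid metabolism or fat cells. Of its 27 measured members in serum exosomes, 8 were called higher and 6 lower at 3 months, with a median log2 ratio of -0.51, beside 18.3% higher and 25.9% lower and a median of -0.38 over all measured miRNAs. In SI-Exos 22 were measured, 6 were called higher and 4 lower, and the median was 0.37, beside 32.7% higher, 29.4% lower and a median of 0.45 over all. Members of the list were called in both directions in each source. Its most abundant members were miR-122-5p, miR-143-3p and miR-26a-5p. miR-122-5p, which supports cholesterol and fatty acid synthesis in liver, had 319826 and 20630 reads in serum exosomes and 52 and 25 in SI-Exos (ratio 0.699, not called). miR-143-3p, which promotes fat cell differentiation, was called higher at 3 months in both sources, by 2.28-fold in SI-Exos and 2.48-fold in serum exosomes. miR-26a-5p had ratios of 1.74 and 0.658, neither called. Between sources the list had 8 of 26 measured members called higher and 10 lower in SI-Exos at 3 months, beside 44.3% higher and 28.1% lower over all measured miRNAs. At 18 months 3 of 26 were called higher and 9 lower, beside 34.2% and 31.2% over all. With TMM factors, DESeq2 size factors and the authors' RPM, the list counts called lower were 14, 14 and 25. Those over all 231 measured miRNAs were 107, 98 and 173.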

How the data were processed

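Small RNA libraries of exosomes isolated by ultracentrifugation were compared, 1 per age and source. For each mature miRNA the authors deposited a raw read count and an RPM value, which divides the count by a library total that exceeds the sum of miRNA reads. The submitters' processing notes list Bowtie2 2.2.9 and GRCm38, with no options stated in the sources used here. The labels name an MGI kit and DNBSEQ platform, the methods a VAHTS kit and HiSeq. Deposited columns of log2 fold change, Poisson p-value and FDR were not used. From the counts, CPM and ratios with exact conditional binomial 95% intervals were computed. Where 1 library had 0 reads, any interval without 1 counted as a call. Log2 ratios of lists and profiles used 0.5 added counts. No p-value was computed. The miRNAs named were the 4, their known hairpin and seed relatives, the 3 lipid-list members with most reads, the 3 nearest profiles and the most abundant markers. Predicted miRNAs that share a seed with miR-22-3p or miR-148a-3p were left out of the relatives. The members and lists were chosen with earlier results of these data known. One read was 4.71, 14.0, 1.20 and 1.28 CPM in 3m-SI-Exos, 18m-SI-Exos, 3m-serum-exos and 18m-serum-exos, which sets the precision of low levels. Alternatives were TMM (edgeR 4.0.16), DESeq2 1.42.0 size factors, the authors' RPM, totals without the 5 most abundant miRNAs, minimums of 1 and 50 reads, folds of 1.5 and 4, 2 added counts and the sum of the miR-378 names. The calling rule was tested on simulated data. Software was R 4.3.3 and Python 3.11.15 with scipy 1.17.1, numpy 2.4.6, pandas 2.3.3 and matplotlib 3.10.9.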

Additional observations from a re-analysis of the deposited data

Results flagged for a closer look

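miR-22-3p differed in opposite directions between the ages in the sources. Its CPM ratio of 3 to 18 months was 0.692 in SI-Exos, on 2135 and 1038 reads, and 3.62 in serum exosomes, on 46992 and 12134 reads. The difference was not tested, as each source has 1 library per age. In SI-Exos the ratio was below 1 under the other scalings tried (0.537 to 0.989) except the authors' RPM, which gave 1.92, whereas in serum exosomes it stayed above 3 under all of them.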

How the results depend on the processing

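No paired analysis was possible because the labels give no replicate numbers and each condition has 1 library. Depth limits miR-378c most, with 3 to 59 reads, and the 18m-SI-Exos library most among the libraries. Scalings are given in the order TMM, DESeq2, RPM and totals from which the 5 most abundant were removed. They shift all log2 age ratios by 0.07, 0.52, 1.47 and -0.37 in SI-Exos and by 0.19, 0.10, 0.15 and 0.26 in serum exosomes. They shift the source ratios by -1.15, -0.97, -2.37 and -1.0 at 3 months and by -1.17, -0.92, -3.69 and -0.29 at 18 months. The median ratio of the 4 miRNAs in SI-Exos, 1.05 by CPM, was 1.5 with DESeq2 and 2.92 by RPM. In serum exosomes, 3.47 by CPM, it was 3.96, 3.71, 3.84 and 4.16. Between sources it went from 0.534 to 0.240, 0.272, 0.103 and 0.266 at 3 months, and at 18 months from 1.96 to 0.873, 1.03, 0.152 and 1.61. The 18-month medians include miR-378c, which did not reach the read minimum there. Over the 3 measured miRNAs the 18-month median by CPM was 0.933. The value that reversed a call was miR-378a-3p between sources at 18 months, 4.13 by CPM and 0.319 by RPM. Of the 4 miRNAs in SI-Exos, 1 was called higher at 3 months by CPM, 3 by RPM, 0 without the 5 most abundant and 0 at 4-fold. In serum exosomes 4 were called, 3 with a minimum of 50 reads and 1 at 4-fold. Between sources at 3 months 1 was higher in SI-Exos, 0 by RPM and 2 at 1.5-fold. At 18 months 1 was higher, 0 with TMM, 0 by RPM and 2 with a minimum of 1 read, and 0 were lower, against 2 with TMM, 2 with DESeq2, 3 by RPM, 1 without the 5 most abundant and 1 at 1.5-fold. Of the lipid list in SI-Exos, 6 were higher, 14 by RPM and 3 at 4-fold, and 4 lower, 1 by RPM and 0 with a minimum of 50 reads. In serum exosomes 8 were higher, 2 at 4-fold, and 6 lower, 10 at 1.5-fold and 1 at 4-fold. Between sources at 3 months 8 were higher, but 4, 5, 2 and 5 with the scalings and 5 at 4-fold, and 10 lower, but 16 with TMM, 18 by RPM and 5 at 4-fold. At 18 months 3 were higher, 1 by RPM and 5 at 1.5-fold, and 9 lower, 14 with TMM, 14 with DESeq2 and 25 by RPM. Of all miRNAs in SI-Exos, 70 were higher, 131 by RPM, and 63 lower, 31 by RPM and 30 with a minimum of 50 reads. In serum exosomes 46 were higher, 28 with a minimum of 50 reads and 22 at 4-fold, and 65 lower, 39 and 19. Between sources at 3 months 104 were higher, but 79, 82, 50 and 81 with the scalings and 66 with a minimum of 50 reads. There 66 were lower, 105 with TMM, 99 with DESeq2, 133 by RPM and 100 without the 5 most abundant. At 18 months 79 were higher, 41 by RPM and 45 with a minimum of 50 reads. There 72 were lower, 107 with TMM, 98 with DESeq2, 173 by RPM and 77 without the 5 most abundant. With miR-378b and miR-378d added to miR-378c, reads per 100 of miR-378a-3p were 3.03 in 3m-SI-Exos, 1.95 in 3m-serum-exos and 2.95 in 18m-serum-exos, in place of 1.96, 0.339 and 0.134. miR-22-3p and miR-148a-3p stayed nearest to each other with 2 added counts and with a minimum of 50 reads. Of the summary counts and values under changed settings, 66 moved and 146 stayed within the limits for a shift. The limit was 1.5-fold for a count and the counting interval under the main setting for a value. Neither limit asks whether a call was kept. The 146 include the 3 of the 4 miRNAs called in serum exosomes with a minimum of 50 reads. For single miRNAs 46 values moved, 1 reversed and 21 stayed within the limits. The cause of these shifts was not tested.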
